A study of Mus musculus with 8 samples.

Results

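Glypicans, syndecans and agrin are the core proteins that carry heparan sulphate chains at the cell surface and in basement membranes. The members described here were the glypicans Gpc1, Gpc3, Gpc4 and Gpc6, the syndecans Sdc1, Sdc2, Sdc3 and Sdc4, and agrin (Agrn), which makes 9 genes of the 18193 that could be named on the arrays. They were chosen by symbol, and each was read by every probe set annotated to that symbol alone, 24 of the 45037 probe sets tested. Gpc4 has 2 of these probe sets, Gpc6 has 5, Sdc1 and Sdc2 have 4 each, Sdc3 has 3, Sdc4 and Agrn have 2 each, and Gpc1 and Gpc3 have 1 each. Gpc1 lies on mouse chromosome 1, Gpc3 and Gpc4 on X, Gpc6 on 14, Sdc1 on 12, Sdc2 on 15, Sdc3 and Agrn on 4, and Sdc4 on 2 (RefSeq, GRCm38.p6). A probe set is a group of short probes against 1 stretch of a transcript, and the probe set with the highest mean log2 signal over the 8 arrays stands for the gene below as its main probe set.

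Glypicans are tied to the outer membrane leaflet by a lipid anchor, syndecans span the membrane and signal through a short cytoplasmic tail, and agrin is secreted and bound into basement membranes. Their heparan sulphate chains hold growth factors such as FGFs, Wnts and Hedgehog close to the receptors. In brain tissue of rodents, astrocytes release Gpc4 and Gpc6 as factors that promote excitatory synapses, and agrin at the astrocyte endfeet binds dystroglycan, next to which the water channel Aqp4 is held in place.

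RNA was measured in optic nerves of C57BL/6 mice aged 35 to 45 days, a white matter tract of axons, glia, vessels and a pial sheath. The nerves were cleaned of the arachnoid and kept as organotypic cultures for 3 days, in a medium with horse serum that both groups shared. To it was added either 20 mM lithium chloride (lithium, 4 samples) or saline (control, 4 samples). The paper states that the pial layer restricts passage and that this dose was meant to give a much lower, therapeutic level within the nerve. It also describes nerves taken out and cultured with an intact retina, and does not say whether retina entered the RNA. Each sample was read on 1 Affymetrix mouse genome array, and the authors deposited MAS5 signals, linear intensities in arbitrary units scaled to a trimmed mean of 100 on every array. The sample labels give 6 nerves per sample, whereas the paper and the series description count 6 mice for the transcriptomic work or for a group, and the paper names the C57/BL10 strain. Whether a group's samples stem from different animals or cultures is not given in these sources, and the p-values below therefore cover the spread among the arrays at hand, part or all of which may be technical.

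Signals were floored at 1, taken to log2 and compared as lithium minus control with limma, and an adjusted p under 0.05 (Benjamini-Hochberg over all probe sets tested) made a call. Array medians lay between 12.3 and 16.5 in lithium and between 14.8 and 17.5 in controls. Lithium array 1 had the lowest median, the highest Gapdh signal at the 3′ end over that at the 5′ end (0.53 on the log2 scale, against 0.34 to 0.43 on the other 7 arrays) and the highest mean of the hybridisation controls. Arrays of both groups carry the numbers 1 to 4, and deviations from the group means correlated between arrays of the same number (0.130 to 0.197), so that a fit with the number as a replicate block and the changes within arrays 1 and 2 and within arrays 3 and 4 are given beside the results they touch. The astrocyte list, led by Gfap, had 0 of 12 genes called, and all 12 were above the poly-A control probe sets on every array, as were all 9 measured oligodendrocyte genes. Of the photoreceptor genes, Crx, Nrl and Pde6b were above these controls on no array.

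Of the 9 members, 1 fell on its main probe set (Gpc6) and 0 rose, where 2.05% of all genes were called lower and 1.18% higher. Over the 24 probe sets 3 fell, 1 each of Gpc4, Gpc6 and Sdc2, where 1.39% of all probe sets were called lower, and 0 rose. At an unadjusted p under 0.05 there were 13 of the 24, all with lower mean log2 signals in lithium, where 9.39% of all probe sets were so. The 13 came from Gpc4, Gpc6, Sdc1, Sdc2, Sdc3 and Sdc4, several from the same gene, and the share includes faint probe sets. The median log2 fold change over the 9 main probe sets was -0.23, beside -0.00276 over all genes, and 8 of the 9 had a lower mean log2 signal in lithium, which is what a lower mean stands for in all counts below. Among the glypicans the median was -0.54, and among the syndecans it was -0.26. With the replicate block 0 of the 24 probe sets passed (lowest adjusted p = 0.0681 from limma, for Gpc6), while 124 of all probe sets did. With a term for arrays 1 and 2 against 3 and 4 in place of the block, 6 of the 24 passed, the additional ones being further probe sets of Gpc6, Sdc1 and Sdc4. The share of all probe sets that passed with this term is not given here, so the rise cannot be read as particular to the members.

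**Figure D1:**
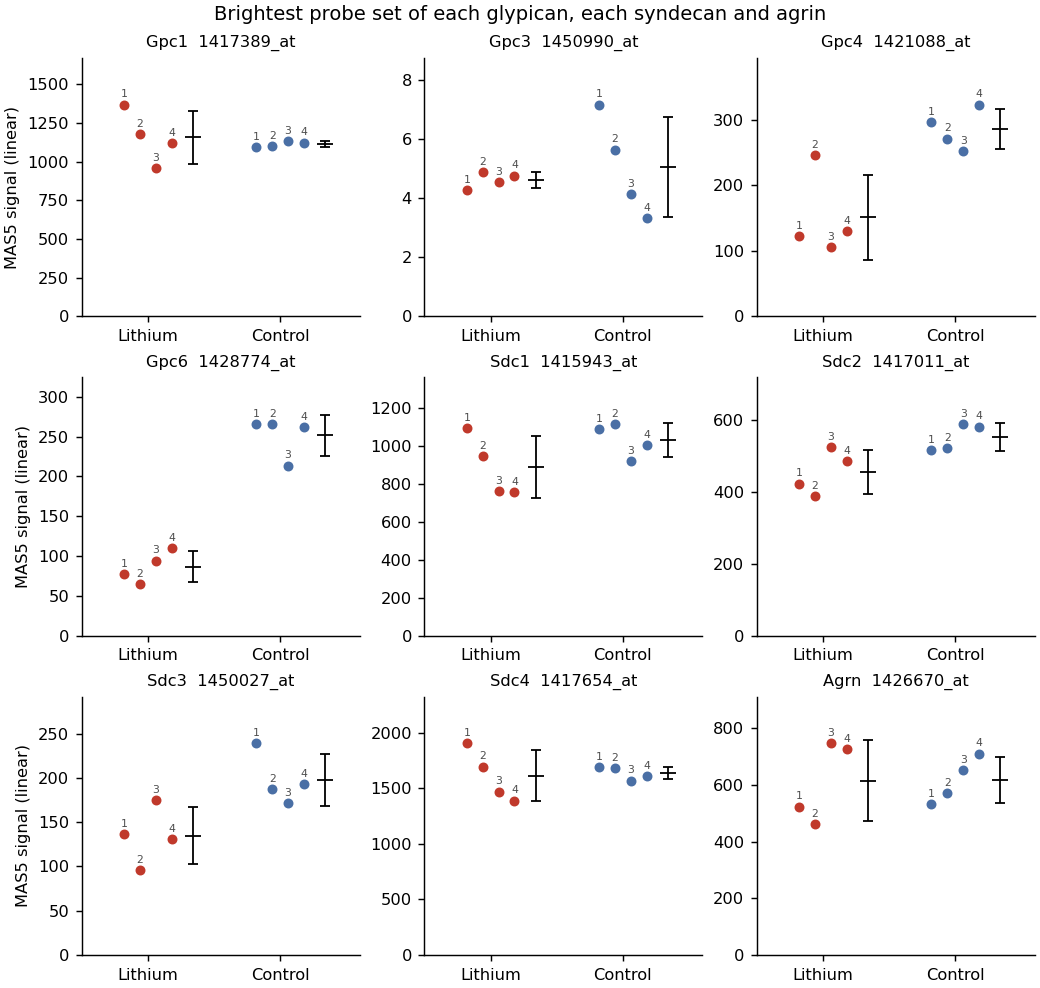
Linear MAS5 signal (arbitrary units, vertical axis) of the main probe set of each of the 9 genes on the 4 lithium arrays (red, left) and the 4 control arrays (blue, right), with array numbers above the points and the mean ± SD beside them. The groups did not overlap for Gpc4 and Gpc6 and overlapped for the other 7 genes.

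Groups did not overlap, with all 4 lithium values under all 4 control values, for 2 of the 9 members (Gpc4 and Gpc6), where 8.92% of all genes did so. In the opposite direction the count was 0 of 9, where 6.47% of all genes did so. Over probe sets the count of those lower without overlap was 10 of 24, in Gpc4, Gpc6, Sdc1, Sdc2 and Sdc4, where 6.44% of all probe sets did so. Faint probe sets take part in these shares. Background was set for each array at the highest signal of the 27 poly-A control probe sets, which lay between 2.13 and 5.64. Of all probe sets above it on every array of at least 1 group, 8.89% were lower without overlap and 1.95% were called lower. The 10 member probe sets lower without overlap lay above it on all 8 arrays, and 4 of the 24 member probe sets lay above it on all arrays of neither group, 1 each of Gpc6, Sdc2, Sdc3 and Agrn.

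Gpc4 and Gpc3 are neighbours on the mouse X chromosome, and their start regions are shown because Gpc4 had a called probe set while Gpc3 was read near background. The windows hold 250 bases before and 50 after the start site (RefSeq, GRCm38.p6, minus strand, 5′ to 3′), at chrX:52164874-52165173 for Gpc4 and chrX:52613925-52614224 for Gpc3. Capitals mark the GC box GGGCGG, read on either strand, so that it appears here as its reverse complement.
Gpc4: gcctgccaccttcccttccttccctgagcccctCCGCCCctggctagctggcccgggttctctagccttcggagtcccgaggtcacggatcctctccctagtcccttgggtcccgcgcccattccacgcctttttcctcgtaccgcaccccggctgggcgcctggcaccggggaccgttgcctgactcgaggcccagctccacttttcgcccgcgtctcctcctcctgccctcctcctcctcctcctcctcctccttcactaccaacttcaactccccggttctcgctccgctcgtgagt
Gpc3: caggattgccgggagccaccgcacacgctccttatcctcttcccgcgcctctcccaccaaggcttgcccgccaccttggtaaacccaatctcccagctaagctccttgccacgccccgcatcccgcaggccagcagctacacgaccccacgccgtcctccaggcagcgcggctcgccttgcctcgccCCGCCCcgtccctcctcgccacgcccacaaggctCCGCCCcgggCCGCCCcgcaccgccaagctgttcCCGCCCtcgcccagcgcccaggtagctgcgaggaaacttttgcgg
Both windows were rich in G and C (66.7% in Gpc4 and 70.7% in Gpc3, against a median of 52.7% over 32851 promoter windows), with 22 and 30 CpG dinucleotides against a median of 7. The Gpc4 window held 1 GC box, at -217 from the start, and the Gpc3 window held 4, which did not overlap each other. Of all windows 35.7% held at least 1 GC box. The letters CTTTGA, the core of the site of TCF/LEF factors, were searched on both strands because lithium inhibits GSK3, which acts on these factors through beta-catenin. They were in none of the 7 windows found for 6 of the 9 members (Gpc3, Gpc4, Sdc1, Sdc3, Sdc4 and Agrn, which has 2), where 16% of all windows held them, and TATAAA was likewise in none, where 13.6% held it.

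The glypican with the lowest adjusted p was Gpc4, which holds Wnts, FGFs and BMPs at the cell surface. Its called probe set 1436514_at gave 57.2, 44.5, 43.9 and 58.7 on lithium arrays 1 to 4, against 122, 136, 150 and 113 on control arrays 1 to 4. The gap between the groups was wider than the spread within either of them. Signal was 51.1 ± 7.94 in lithium and 130.2 ± 16.4 in controls (SD, n = 4 each), a log2 fold change of -1.355 (standard error 0.14, 95% interval -1.69 to -1.02, adjusted p = 0.0146 from limma). The fall was -1.35 within arrays 1 and 2 and -1.361 within arrays 3 and 4. It passed in all 8 fits that left out 1 array (adjusted p at most 0.0463 from limma) and had an adjusted p of 0.0753 with the replicate block.

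The main probe set of Gpc4, 1421088_at, gave 122, 246, 105 and 129.8 in lithium, against 296, 271, 252 and 323 in controls. The groups did not overlap, but lithium array 2 lay just under the lowest control array and far above the other lithium arrays. On this probe set lithium was at 50.04% of control (log2 fold change -0.999, standard error 0.27, 95% interval -1.63 to -0.37, adjusted p = 0.110 from limma), which missed the threshold. Without lithium array 2 it passed, with a change of -1.26 (adjusted p = 0.0260 from limma). Without any other 1 array it did not (adjusted p = 0.177 to 0.231 from limma), nor with the replicate block (0.152). The mean of both probe sets passed with all arrays (-1.18, adjusted p = 0.0102 from limma).

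Gpc6, a glypican of the same subfamily as Gpc4 that promotes Hedgehog signalling in growing bone, fell on its main probe set, 1428774_at. That probe set gave 77.1, 65.03, 94.2 and 109.8 on lithium arrays 1 to 4, against 266, 265, 213 and 262 on control arrays 1 to 4. Control array 3 was the lowest of its group and still above every lithium array. Signal averaged 86.5 ± 19.6 in lithium and 251.5 ± 25.5 in controls (SD, n = 4 each), 33.9% of control (log2 fold change -1.56, standard error 0.175, 95% interval -1.98 to -1.15, adjusted p = 0.0162 from limma). This was the only main probe set of a member that also changed at least 2-fold with a mean of at least 200 in 1 group. The study used limits of 2-fold and 200 but does not say in which samples the level had to be met. Gpc6 met the level through the controls alone, so that this limit is not independent of the difference tested. The fall was -1.91 within arrays 1 and 2 and -1.22 within arrays 3 and 4. Adjusted p from limma was 0.0681 with the replicate block, 0.0511 without control array 1 and 0.0525 without control array 4, and under 0.05 without each of the other 6 arrays.

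The other probe sets of Gpc6 were fainter, and none was called. On 1437417_s_at the signal was 15.4, 15.0, 22.1 and 34.1 in lithium, against 50.2, 68.5, 52.5 and 55.7 in controls, again without overlap (log2 fold change -1.46, adjusted p = 0.0504 from limma). This probe set lay at the threshold and passed with other settings over all 8 arrays, such as without _x_at probe sets (adjusted p = 0.0498 from limma), after quantile normalization (0.0372) and with the term for arrays 1 and 2 (0.0330), but not with the replicate block (0.106). On 1419689_at it was 5.39, 6.44, 15.2 and 17.9 in lithium and 20.8 to 21.5 in controls. The lithium values of that probe set fell into a low pair, arrays 1 and 2, and a pair near the control level, arrays 3 and 4 (-1.86 and -0.36 within these pairs, adjusted p = 0.217 over all from limma). The groups overlapped on 1419688_at (-0.63, adjusted p = 0.217 from limma), and 1441438_at was at background. Averaged over its 5 probe sets, Gpc6 gave -1.07 and no longer passed (adjusted p = 0.0687 from limma).

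**Figure D2:**
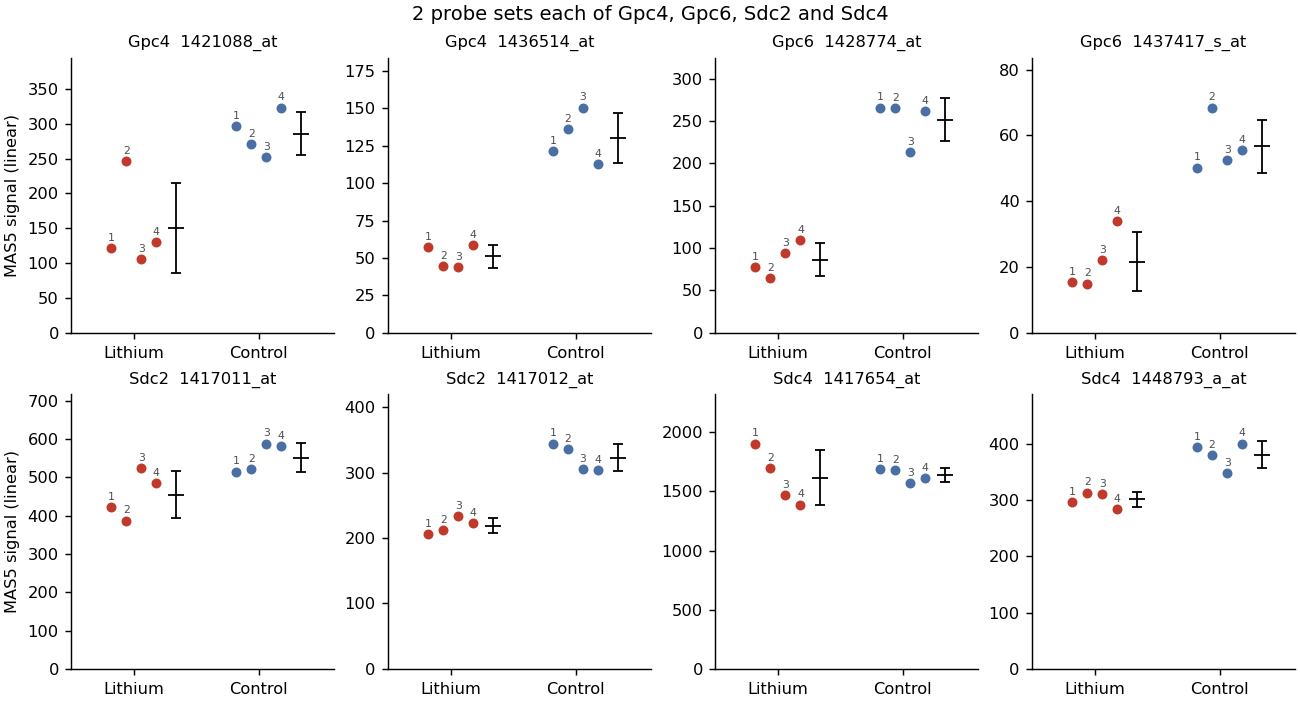
Linear MAS5 signal of 2 probe sets each of Gpc4, Gpc6, Sdc2 and Sdc4, the main one left of a second one, on the lithium (red, left) and control (blue, right) arrays, with array numbers and mean ± SD. Second probe sets of Gpc4 and Sdc2 passed the test where the main ones did not, and lithium array 2 stands apart from the other lithium arrays on the main probe set of Gpc4.

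In these nerve samples fewer cells of a type and less RNA per cell cannot be told apart. Marker lists of other cells in the samples are given beside Gpc4 and Gpc6 for that reason. Over all genes 2.05% were called lower and 1.18% higher, with a median log2 fold change of -0.00276. Of 13 meningeal fibroblast markers, 11 had a lower mean and 1 was called lower (Foxc1, a transcription factor, log2 fold change -1.64, adjusted p = 0.0108 from limma). Their summed signal was 879 to 2149 in lithium and 2145 to 3152 in controls, with a median log2 fold change of -1.20. Of 11 pericyte and smooth muscle markers, 10 had a lower mean and 1 was called lower (Pdgfrb, -2.145), with a median of -0.82 and summed signals of 1154 to 2058 in lithium and 1282 to 2035 in controls. Of 11 endothelial markers, 8 had a lower mean and 1 was called lower (Kdr, -1.35, adjusted p = 0.0321 from limma), with a median of -0.285 and sums of 1719 to 1933 in lithium and 1982 to 2440.0 in controls. The oligodendrocyte precursor list had 5 of 8 genes with a lower mean and 1 called lower (Tmem100). Cspg4, Olig1 and Olig2 had higher means in lithium (0.10, 0.09 and 0.77, none called), and for Olig2 the groups did not overlap. This list had a median of -1.16 and sums of 903 to 1037 in lithium and 1300.0 to 1507 in controls. The sums over 12 astrocyte genes were 7895 to 9263 in lithium and 8768 to 9267 in controls, with a median of -0.155. Of 9 oligodendrocyte genes, 3 had a lower mean and 0 were called, with a median of 0.076. Their sums were 11210 to 14770 in lithium and 11090 to 12010 in controls. Of 8 dividing cell genes, 4 were called lower and all 8 had a lower mean, with a median of -3.50 and sums of 55.3 to 234 in lithium and 749 to 2073 in controls. The neuron list had 1 of 11 genes called lower (Stmn2) and 2 called higher (Nefm and Tubb3), a median of -0.37 and sums of 844 to 1000.0 in lithium and 692 to 815.5 in controls. With the replicate block no gene of the meningeal, pericyte, endothelial, oligodendrocyte precursor, astrocyte or microglia lists passed (adjusted p = 0.0564 for Foxc1 and 0.0550 for Pdgfrb from limma), while 2 dividing cell genes and 1 neuron gene did. The part of these cell types in the changes of Gpc4 and Gpc6 was not tested.

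Gpc1, a glypican of neurons and glia that binds Slit proteins and FGFs, had 1368, 1179, 958 and 1117 in lithium, against 1092, 1100.0, 1134 and 1122 in controls. Control arrays lay close together, and the lithium arrays were spread around them on both sides. The log2 fold change was 0.04 (95% interval -0.21 to 0.30, adjusted p = 0.896 from limma), an interval that leaves small changes in either direction. It was 0.21 within arrays 1 and 2 and -0.12 within arrays 3 and 4.

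Gpc3, a glypican that restrains Hedgehog signalling and is known from developing tissue, was read near background. Its only probe set gave 4.28, 4.89, 4.55 and 4.77 in lithium, against 7.18, 5.65, 4.13 and 3.34 in controls. Lithium array 1 was under the poly-A controls of its own array, and the groups overlapped (log2 fold change -0.075, 95% interval -0.63 to 0.48, adjusted p = 0.928 from limma). Gpc5, a glypican next to Gpc6 on chromosome 14 among protein-coding genes, was likewise faint (0.095, adjusted p = 0.985 from limma), and Gpc2 had an adjusted p of 0.738 from limma (-0.31). These 2 glypicans were not among the 9 members.

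Among the syndecans, Sdc2, which is typical of fibroblasts and other mesenchymal cells, had the called probe set. On 1417012_at it gave 206, 212.5, 233.5 and 223 in lithium, against 344, 336, 306 and 304 in controls. The 2 sets of values were narrow and well apart, with control arrays 1 and 2 the highest and lithium arrays 1 and 2 the lowest. Signal was 219 ± 11.9 in lithium and 322 ± 20.6 in controls (SD, n = 4 each), 67.9% of control (log2 fold change -0.56, standard error 0.07, 95% interval -0.73 to -0.39, adjusted p = 0.0201 from limma). It was -0.70 within arrays 1 and 2 and -0.42 within arrays 3 and 4, and the adjusted p from limma was 0.0863 with the replicate block and 0.208 with median centring (-0.47). In fits without 1 array the adjusted p from limma was 0.0503 without lithium array 1, 0.0566 without control array 1, 0.0516 without control array 2, 0.0529 without control array 3 and 0.0508 without control array 4, and it was under 0.05 without lithium array 2, 3 or 4.

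The main probe set of Sdc2, 1417011_at, gave 422, 387, 524 and 486 in lithium, against 515, 522, 588 and 581 in controls. Lithium array 3 reached into the control range, while arrays of the same number were each lower in lithium than in control. The log2 fold change was -0.29 (standard error 0.11, 95% interval -0.55 to -0.02, adjusted p = 0.242 from limma). Another probe set, 1448545_at, gave -0.31 (adjusted p = 0.345 from limma), and 1431474_at was at background.

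Sdc1, the syndecan of epithelia and plasma cells, had 1095, 949, 762 and 756 on its main probe set, 1415943_at, in lithium, against 1092, 1117, 921 and 1005 in controls. Lithium array 1 was level with the controls, and arrays 3 and 4 were the lowest. The log2 fold change was -0.23 (95% interval -0.56 to 0.11, adjusted p = 0.471 from limma). The other 3 probe sets of Sdc1 were each lower in lithium without overlap, by -0.34 on 1437279_x_at, -0.63 on 1415944_at and -0.65 on 1448158_at (adjusted p = 0.157, 0.0854 and 0.167 from limma). Of these, 1415944_at gave 264.5, 281, 205 and 246 in lithium, against 346, 408, 326 and 469 in controls. It passed where a level of 200 was required before the test (adjusted p = 0.0292 from limma), and 1448158_at passed with the term for arrays 1 and 2 (adjusted p = 0.0461 from limma). Neither passed with the replicate block (adjusted p = 0.0982 and 0.143 from limma) or with median centring (0.279 and 0.347).

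Control array 4 was the highest control array for Sdc1 on 1437279_x_at and 1415944_at, and it also had the highest epithelial marker signal. The sum over 6 epithelial genes (Cdh1, Epcam, Krt8, Krt18, Krt19 and Krt5) was 110.4, 99.7, 57.7 and 36.6 on lithium arrays 1 to 4, against 325, 291.5, 82.6 and 1133 on control arrays 1 to 4. All 6 had lower means in lithium and 0 were called. On the other 2 probe sets of Sdc1, control array 2 was the highest control array. Leaving out any 1 array gave 1415944_at an adjusted p of 0.1105 to 0.175 from limma, with 0.162 for the fit without control array 4. The part of epithelial cells in the Sdc1 signal was not tested.

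Sdc3, the syndecan of neural tissue, had 137, 95.8, 174.5 and 131 on 1450027_at in lithium, against 239, 187, 171 and 192.5 in controls. Lithium array 3 lay above control array 3, so that the groups overlapped, and control array 1 was the highest. The log2 fold change was -0.58 (standard error 0.195, 95% interval -1.04 to -0.11, adjusted p = 0.185 from limma), -0.89 for arrays 1 and 2 alone and -0.27 for arrays 3 and 4 alone. The remaining probe sets of Sdc3 were near or at background (1436482_a_at at 3.20 to 5.55 in lithium and 3.804 to 9.06 in controls, and 1420853_at under the poly-A controls on all arrays).

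Sdc4, the syndecan of focal adhesions, was read differently by its 2 probe sets. The main one, 1417654_at, had 1902, 1694, 1468 and 1388 in lithium, against 1688, 1678, 1567 and 1611 in controls, so that the lithium arrays lay on both sides of the controls (log2 fold change -0.03, 95% interval -0.29 to 0.22, adjusted p = 0.940 from limma). The second, 1448793_a_at, had 297, 313, 311 and 283.5 in lithium, against 394, 380, 348 and 400.1 in controls. Here every lithium array was under every control array, and the change was alike within arrays 1 and 2 and within arrays 3 and 4 (-0.34 and -0.33). Over all arrays it was -0.34 (95% interval -0.50 to -0.175, adjusted p = 0.0598 from limma, 0.0440 with the term for arrays 1 and 2, 0.0321 with log2 of the signal plus 16). With the replicate block the adjusted p from limma was 0.141, with median centring 0.567, and without any 1 array 0.0719 to 0.142. Where on the transcript each probe set lies was not analysed here.

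Agrin is the secreted member, best known for gathering acetylcholine receptors at the neuromuscular junction through Lrp4 and Musk. Its main probe set, 1426670_at, gave 523, 462, 746.5 and 726 in lithium, against 531, 571, 653 and 710.5 in controls. In both groups arrays 3 and 4 were higher than arrays 1 and 2, and more so in lithium. The log2 fold change was -0.03 (standard error 0.19, 95% interval -0.47 to 0.42, adjusted p = 0.993 from limma), -0.16 within arrays 1 and 2 and 0.11 within arrays 3 and 4. The other probe set, 1443980_at, was under the floor on all 8 arrays.

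**Figure D3:**
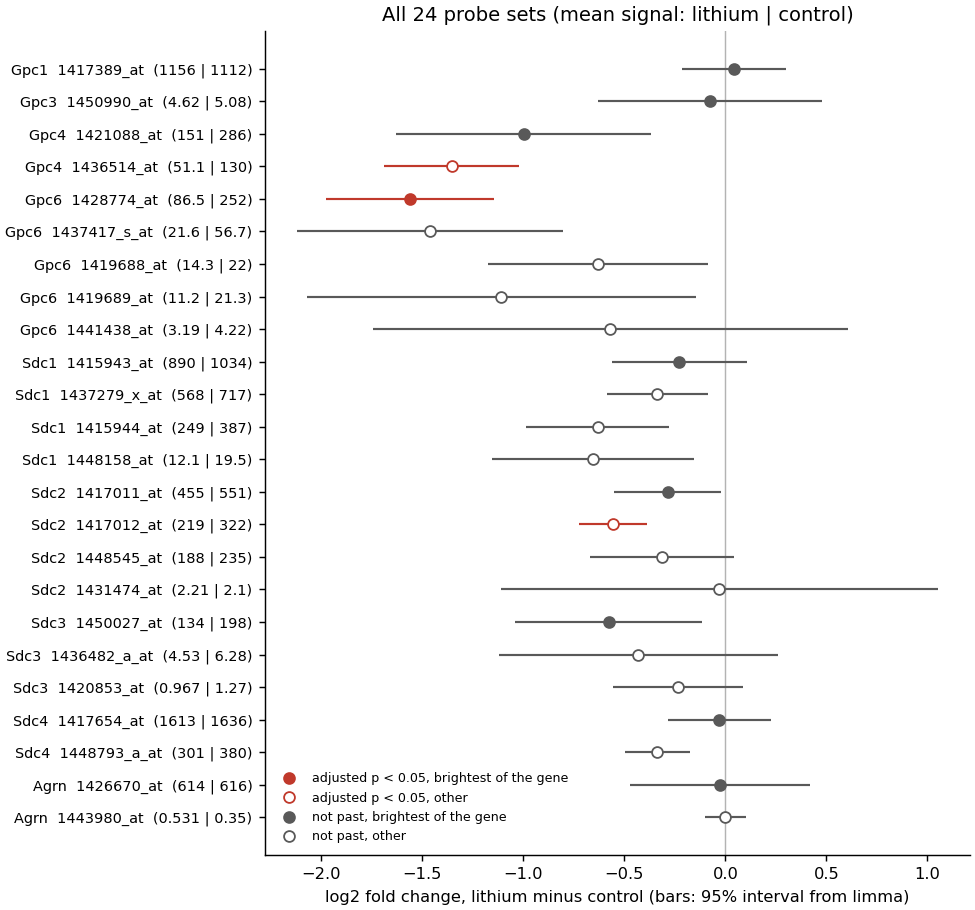
Log2 fold change (lithium minus control) with its 95% interval from limma for all 24 probe sets, grouped by gene, with the mean linear signals in lithium and in controls beside each name. Filled points are main probe sets and red points are the 3 with an adjusted p under 0.05, of Gpc4, Gpc6 and Sdc2.

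Within the 2 pairs of array numbers the main probe sets did not all keep 1 direction. Gpc4, Gpc6, Sdc1, Sdc2 and Sdc3 were lower in lithium within both pairs, with the larger difference in arrays 1 and 2 for Gpc6, Sdc2 and Sdc3 and in arrays 3 and 4 for Gpc4 and Sdc1. Gpc1, Gpc3, Sdc4 and Agrn had opposite signs in the 2 pairs. Median log2 fold change over the 9 genes was -0.36 in arrays 1 and 2 and -0.21 in arrays 3 and 4. A difference between the pairs was not tested.

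**Figure D4:**
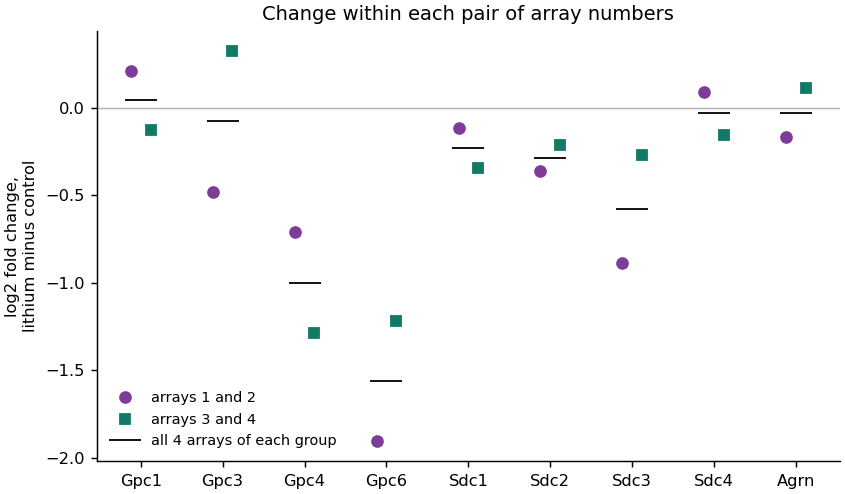
Log2 fold change (lithium minus control, vertical axis) of the main probe set of each gene within arrays 1 and 2 (circles), within arrays 3 and 4 (squares) and over all 4 arrays of each group (lines). Gpc6 had -1.91 and -1.22 and Gpc4 had -0.71 and -1.29 in the 2 pairs, while Gpc1, Gpc3, Sdc4 and Agrn lay on opposite sides of 0.

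The genes whose centred log2 signals followed those of Gpc6 most closely over the 8 arrays, of 6389 genes compared, were Zdhhc2, a palmitoyltransferase, Fstl1, a secreted glycoprotein, and Uhrf1, a factor that maintains DNA methylation. Their mean absolute differences from Gpc6 were 0.147, 0.181 and 0.185 on the log2 scale. As a description, their log2 fold changes were -1.47, -1.47 and -1.52, beside -1.56 for Gpc6.

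Genes that build, modify and use the heparan sulphate chains were taken from 6 lists, 1 probe set per gene. Over all genes 2.05% were called lower and 1.18% higher, with a median log2 fold change of -0.00276. Of 10 genes that start and lengthen the chain, 0 were called in either direction and the median log2 fold change was 0.00. The brightest of them, Extl3 and Extl2, glycosyltransferases of chain initiation, gave 0.135 and -0.013 (adjusted p = 0.567 and 1.00 from limma). Among 18 genes that modify or degrade the chain, 1 fell and 0 rose, with a median of -0.08. That gene was Hs6st2, a 6-O-sulphotransferase of the chain, with 4.23, 5.15, 2.53 and 5.93 in lithium, against 16.1, 12.6, 14.6 and 16.8 in controls. It was faint, above the poly-A controls on 2 of the 4 lithium arrays (log2 fold change -1.815, adjusted p = 0.0287 from limma).

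Of 11 other proteoglycans and part-time carriers of such chains, 2 fell and 0 rose, with a median of -0.31. Tgfbr3, or betaglycan, which presents TGF-beta to its receptors, had 207, 215, 199 and 200.5 in lithium, against 291, 286, 262 and 289 in controls (-0.46, adjusted p = 0.0206 from limma). Srgn, the granule proteoglycan serglycin of blood cells, had 922 ± 84.8 in lithium and 1380.0 ± 101.1 in controls (SD, n = 4 each, -0.58, adjusted p = 0.0324 from limma). Microglia and macrophage markers stood beside it with 2 of 12 called lower (Trem2 and Tyrobp), a median of -0.28 and sums of 3243 to 4394 in lithium and 4073 to 5569 in controls, and their part in the fall of Srgn was not tested.

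Adaptors of syndecan tails and enzymes that shed syndecans and glypicans numbered 16, of which 0 were called, with a median of -0.23. The brightest were Sdcbp, or syntenin, which binds syndecan tails (0.10, adjusted p = 0.830 from limma), and Adam10, a sheddase (-0.31, adjusted p = 0.148 from limma). Of 10 agrin receptors and partners 0 were called, with a median of -0.32. The brightest were Aqp4 (-0.21, adjusted p = 0.440 from limma) and Utrn, a dystrophin relative bound to dystroglycan (0.12, adjusted p = 0.704 from limma).

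The last list held 14 growth factors that bind heparan sulphate, with the FGF receptors. Of these 1 fell and 0 rose, 13 of 14 had a lower mean, and the median was -0.47. The one that fell was Cxcl12, a chemokine, with 40.0, 49.3, 68.3 and 83.1 in lithium, against 315, 222, 251.2 and 256 in controls. No lithium array came near the control range (log2 fold change -2.16, adjusted p = 0.0162 from limma). With the replicate block 0 genes of the 6 lists passed.

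**Figure D5:**
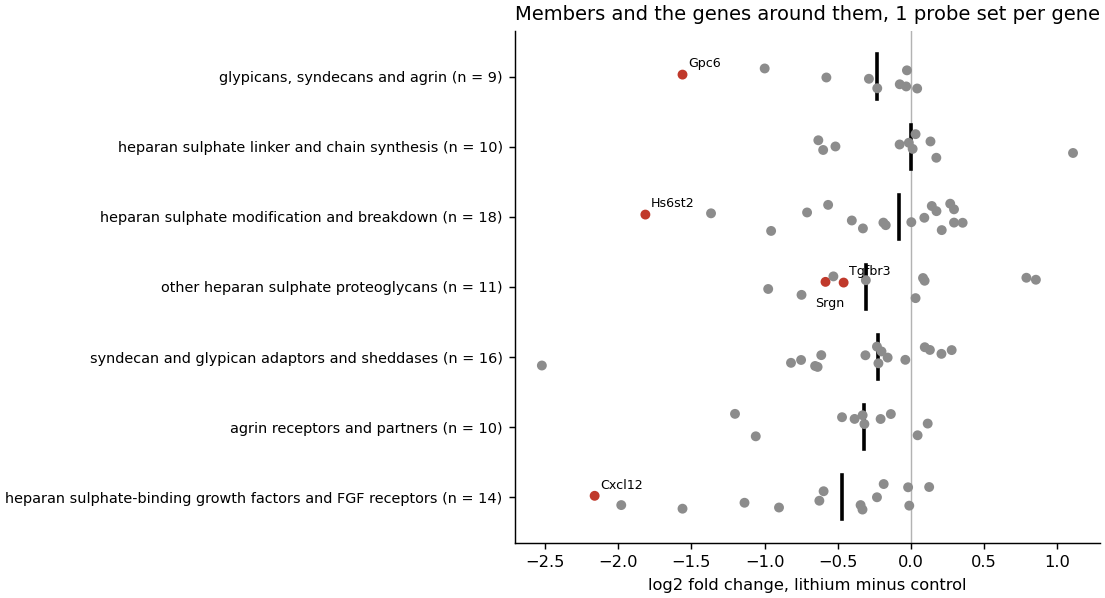
Log2 fold change (lithium minus control) of the 9 members and of the genes of 6 lists around them, 1 point per gene, with the median of each list as a black bar. Red, named points have an adjusted p under 0.05, which are Gpc6 among the members and Hs6st2, Srgn, Tgfbr3 and Cxcl12 in the lists.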

How the data were processed

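RNA of 8 optic nerve cultures, 4 with lithium and 4 controls, was read on 1-colour Affymetrix arrays. The authors deposited the intensities as linear MAS5 signals made in Agilent GeneSpring GX, scaled so that a mean trimmed of 2% at either end was 100 on every array, and a baseline transformation that the paper also names is not seen in the values. Detection calls were not used here. The table held 45101 probe sets, and 64 Affymetrix controls were left out. With the platform annotation 34958 probe sets had 1 symbol, 932 had several and 9211 had none, and only those with 1 were named.

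Signals were floored at 1, which applied to 14.5% of values, and log2 values entered limma 3.58.1 (lmFit and eBayes) under R 4.3.3, with Benjamini-Hochberg adjustment over 45037 probe sets and no block. Means and SDs were taken on the linear scale and fold changes between mean log2 values. With 4 arrays a group, their number sets the precision. Medians are over main probe sets.

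All 9 members and their probe sets were named, and of each list around them the called genes or, where there were none, the brightest 2 genes. For the called member the 3 genes with the smallest mean absolute difference in centred log2 signal were named, among genes with a mean log2 signal of at least 7. Called genes of the marker lists (Foxc1, Pdgfrb, Kdr, Tmem100, Trem2, Tyrobp, Stmn2, Nefm and Tubb3), the photoreceptor genes at background, Cspg4, Olig1, Olig2, Gpc2 and Gpc5 were named after their values were seen. The members and lists were chosen with earlier results of these data known. Same-numbered arrays deviated together in all 4 pairs (0.130 to 0.197, limit 0.1), and arrays of other numbers within 1 and 2 or within 3 and 4 also did (0.071 to 0.131), so that the numbers were taken as pairs from the data alone. Alternatives were quantile normalization, median centring, log2 of the signal plus 16, a level of 200 before the test, a gene taken as the average of its probe sets, leaving out probe sets ending in _x_at, array weights, a trended and robust variance, a replicate block, a term for arrays 1 and 2 against 3 and 4, fits within each of these pairs, a 2-fold and level limit, and each array left out. The count over the 24 probe sets of the members under these was added after seeing the data. Promoter windows were those of RefSeq on GRCm38.p6, and Gpc1, Gpc6 and Sdc2 had none in the table used here. Figures were drawn with matplotlib 3.10.9.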

Additional observations from a re-analysis of the deposited data

Results flagged for a closer look

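On the main probe set of Gpc6, control array 3 had a signal of 213.4, set apart below the other 3 control arrays at 262 to 266 by more than Dixon's limit for 4 values. Of 46 groups of 4 arrays tested this was the only such case, a lower rate than the about 1 in 20 groups that chance gives at this limit. Without control array 3 the log2 fold change of Gpc6 was -1.64 (adjusted p = 0.0463 from limma).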

How the results depend on the processing

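Of the 9 members 1 was called lower. The count was 2 (Gpc6 and Gpc4, each meeting the level in controls only) where a level of 200 was required before the test. It was 0 with the replicate block, and between 0 and 2 in the fits without 1 array. Of their 24 probe sets 3 were called lower, and 5 with log2 of the signal plus 16, 0 with the replicate block, 6 with the term for arrays 1 and 2 against 3 and 4, and 1 to 4 when 1 array was left out. With median centring the count stayed at 3, but the probe set of Sdc2 was replaced by a second one of Gpc6. No member was called higher under any alternative. The share of all genes or probe sets called under each alternative is not given here. Shifts in these counts therefore cannot be read as particular to the members. The median log2 fold change of -0.23 was -0.14 with median centring, -0.36 in arrays 1 and 2 and -0.26 to -0.16 when 1 array was left out. Median centring moved the median of all probe sets to 0.09. Gpc4 (-0.999) passed with the level of 200 (adjusted p = 0.0308 from limma), as the average of its probe sets and without lithium array 2. It passed in no other alternative that gave an adjusted p. The level was required in 1 group only, and Gpc4 met it through the controls (mean 285.7, against 150.8 in lithium). Gpc6 likewise met it through the controls (mean 251.5, against 86.5 in lithium). That filter is therefore not independent of the difference tested. The paired fit with the replicate block kept Gpc6 at -1.56 with an adjusted p of 0.0681 from limma, and Gpc6 also missed the threshold as the mean of its probe sets.

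Members without a call could change sign. Gpc1 was at -0.014 after quantile normalization, -0.036 with array weights, -0.12 in arrays 3 and 4 and -0.041 to 0.13 when 1 array was left out. Gpc3 was at 0.012 with median centring, 0.33 in arrays 3 and 4 and -0.26 to 0.11 when 1 array was left out. Sdc4 was at 0.056 with median centring, 0.093 in arrays 1 and 2 and -0.11 to 0.038 when 1 array was left out. Agrn was at 0.061 with median centring, 0.10 with array weights, 0.11 in arrays 3 and 4 and -0.13 to 0.10 when 1 array was left out. The cause of these shifts was not tested. Sdc1, Sdc2 and Sdc3 kept their direction and their side of the threshold on the main probe set under every alternative run. Probe sets near the poly-A controls, as for Gpc3, leave changes at that level unresolved.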
